A study of Mus musculus with 35 samples.

Results

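Ttr, Meg3, Snhg11, Snap25, Mbp, Slc1a3 and Apoe, 7 of the 38924 genes in the count table, are known chiefly from cells of the brain other than T cells, and their RNA was followed here through libraries of sorted CD8 T cells. The genes were chosen by name, as markers of choroid plexus, neurons and glia, with earlier results of these data known. All 7 were found in the files. Ttr encodes transthyretin, the thyroxine carrier that choroid plexus epithelium secretes into cerebrospinal fluid. Meg3 is an imprinted long non-coding RNA and Snhg11 a small nucleolar RNA host gene, both abundant in neurons. Snap25 encodes a SNARE protein of synaptic vesicle release. Mbp encodes myelin basic protein of oligodendrocytes. Slc1a3 encodes the glutamate transporter GLAST of astrocytes, and Apoe encodes apolipoprotein E, made by astrocytes and also by macrophages. Dissociated tissue releases RNA and cell fragments, so a sorted cell suspension can hold transcripts of its neighbours. The RNA of a library does not show by itself which cell it came from.

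Total RNA was sequenced from T cells of C57BL/6 mice, sorted out of brain or spleen as CD3e+CD8+CD44hiCD62Llo, an effector memory phenotype. All 35 libraries passed through that sort, and no gene was modified in any group. The unstimulated groups were young male brain (n = 5), aged male brain (n = 6), aged female brain (n = 5) and aged male spleen (n = 5). The stimulated groups were aged male brain (n = 4), aged female brain (n = 5) and aged male spleen (n = 5), held for 2 h with PMA and ionomycin, which activate T cells without the T cell receptor. Ages are given only as young and aged, no spleen came from young or female mice, and the labels do not say how many animals stood behind a library. P-values therefore measure the spread between libraries, which may be technical in part. Libraries are named by group and by the number in their title.

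The libraries differed before any member was considered. Totals ran from 1.16 to 24.97 M counts. Stimulated brain libraries were shallow, with 2271 to 6769 genes detected, against 6456 to 12706 in unstimulated brain and 13729 to 15174 in spleen. Mitochondrially encoded genes held 38.5% to 69.7% of their counts, against 8.28% to 12.8% in unstimulated brain and 10.8% to 20.8% in spleen. The summed level of 10 T cell genes such as Cd3e and Cd8a was 480 to 1360 CPM (a gene's counts scaled to the library's total) in stimulated brain, 5125 to 8092 in unstimulated brain and 2930 to 6644 in spleen. T cell RNA was thus present in every library, at a lower share in stimulated brain. All spleen libraries and 2 stimulated female brain libraries (26 and 27) have titles in another format, so tissue and title format largely go together and cannot be told apart outside those 2 libraries. A running number in the titles also starts anew, so that the libraries form 3 sets: unstimulated male brain, the remaining brain libraries of the first format, and those of the other format. What these sets stand for is not stated. A difference between such bulk samples also cannot tell fewer cells of a type from less RNA per cell.

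Ttr was the member with the widest range. In unstimulated aged male brain the 6 libraries, 7 to 12, held 409, 43.9, 1.68, 111, 59.0 and 624.5 CPM. In young male brain, libraries 2 to 6 held 1.36, 1.41, 225, 40.1 and 1.501 CPM. In unstimulated aged female brain, libraries 13 and 14 held 3.83 and 8.07 CPM and the other 3 held no count. The unstimulated brain libraries therefore spanned 0 to 624.5 CPM, with both extremes among aged mice. In stimulated aged male brain, libraries 19 to 22 held 949, 757, 176 and 0 CPM. The library at 0 was the shallowest of the series, with 1.16 M counts, in which 0 counts allow up to 2.59 CPM. In stimulated aged female brain, libraries 23 to 27 held 82.1, 94.2, 89.2, 426 and 282 CPM, and every one of them exceeded every unstimulated female library. In spleen, 8 of 10 libraries held no count and the other two, 33 and 39, held 1 count each.

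**Figure D1:**
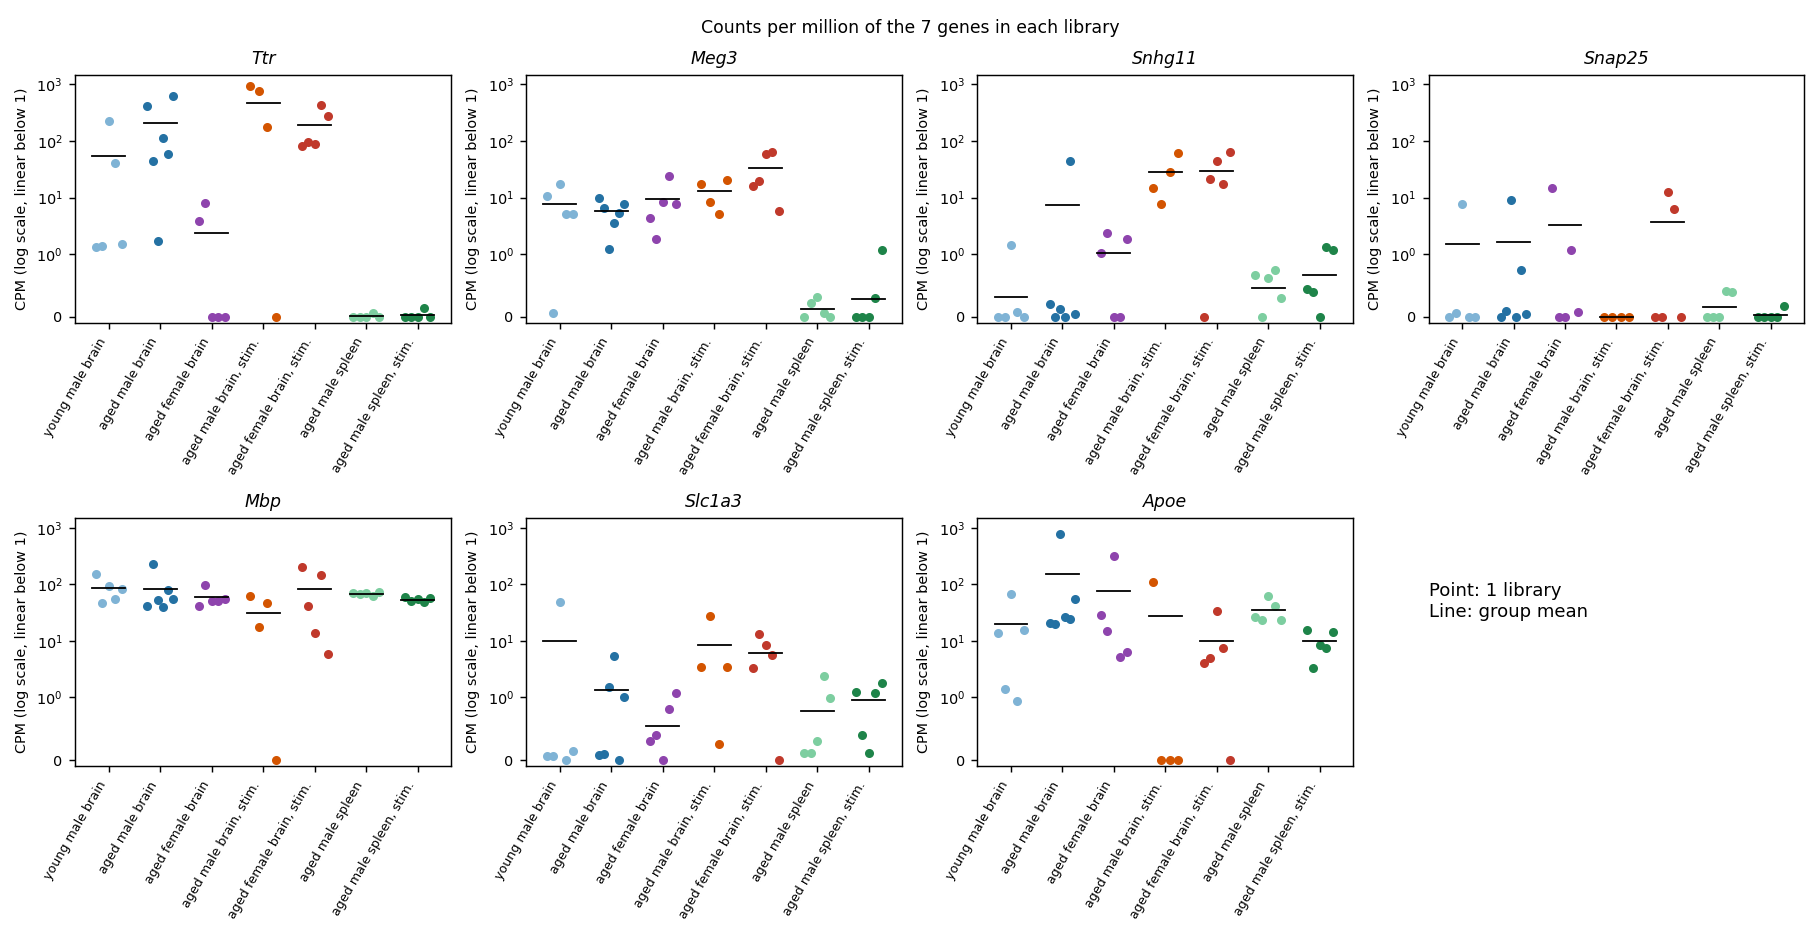
CPM of each gene (log scale, linear below 1) in each of the 35 libraries, by group; points are libraries and lines are group means. Ttr reached 949 CPM in brain and at most 0.148 CPM in spleen, while the Mbp points of spleen lie within 47.7 to 72.6 CPM.

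Between aged male brain and spleen, unstimulated, Ttr was higher in brain by 13.35 ± 1.64 (log2 fold change ± SE, n = 6 and 5) with an adjusted p of 0.00018. All 6 brain libraries exceeded all 5 spleen libraries. The share of all tested genes whose groups separate like this is not given, here or in the other comparisons. A lack of overlap is therefore only a description of the gene named. Since spleen held 1 Ttr count in all, the fitted fold rests on that count. The ratio of pooled CPM was 12830, with a 95% interval of 2303 to 506785 that covers counting error only. Among stimulated males the pooled counts were 8437 in brain and 1 in spleen, a ratio of 29414 with an interval of 5278 to 1161930. The low-count filter removed Ttr from that fit. An exact permutation test of log2(CPM + 1) over the 4 brain and 5 spleen libraries gave a difference of 6.69 with p = 0.0952 (two-sided, adjusted p 0.857 over 18 such tests, the smallest p possible being 0.0159). Of the 4 brain libraries, 3 lay above every spleen library, all but 22. With no low-count filter and all 9 libraries, edgeR gave 13.73 ± 2.43 (adjusted p 0.0017), a fold that again rests on 1 spleen count. The 2 stimulated female brain libraries with spleen-format titles, set against stimulated male spleen, gave 14.08 ± 0.92 (adjusted p 0.0021), with sex differing in place of title format.

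Meg3, a lincRNA, and Snhg11, a host gene that GENCODE M21 lists as protein-coding, are the neuronal members other than Snap25. Both were low. EdgeR called Meg3 higher in brain in both tissue comparisons, and Snhg11 in the stimulated one only. Meg3 had counts in all 25 brain libraries and in 5 of 10 spleen libraries. In unstimulated aged male brain, libraries 7 to 12 held 9.73, 6.51, 1.24, 3.58, 5.27 and 7.67 CPM, while spleen libraries 30 to 34 held 0, 0.217, 0.311, 0.068 and 0 CPM. In stimulated male brain, libraries 19 to 22 held 17.5, 8.48, 5.19 and 20.8 CPM, while stimulated spleen held 0 in 3 libraries, 0.297 in 39 and 1.16 in 40. Neither pair of groups overlapped. The difference was 6.01 ± 1.49 unstimulated (adjusted p 0.0188) and 5.80 ± 1.42 stimulated (adjusted p 0.0068), on the log2 scale. The first call was lost when spleen library 30, 31, 33 or 34 was left out (adjusted p 0.0597 to 0.0732). Unlike Ttr, Meg3 did not drop to 0 in the shallow library 22, where it stood at 20.8 CPM from 24 counts.

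Snhg11 was nearly absent from most unstimulated brain libraries. Only 5 of those 16 libraries had at least 10 counts. Library 11 of aged males stood apart with 817 counts (43.5 CPM), and the other 5 libraries of its group held 0 to 0.200 CPM. Stimulated brain was different: male libraries 19 to 22 held 15.02, 7.58, 28.0 and 62.3 CPM, and female libraries 23 to 27 held 0, 21.4, 44.4, 17.7 and 62.7 CPM. Stimulated male spleen held 0.450, 0.403, 0, 1.33 and 1.16 CPM. All 4 stimulated male brain libraries lay above all 5 spleen libraries, and the difference was 6.01 ± 1.26 (adjusted p 0.0029). In the unstimulated tissue comparison the gene was removed by the filter, and an exact permutation test gave a difference of 0.47 on log2(CPM + 1) with p = 0.939. Spleen libraries 30 to 34 held 0.667, 0, 0.622, 0.748 and 0.295 CPM there. The median was 0.0864 CPM in aged male brain and 0.622 CPM in spleen. Library 11 was the 1 brain library above every spleen library.

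Snap25, a protein-coding neuronal gene, was scattered. It had counts in 11 of 25 brain libraries and in 3 of 10 spleen libraries. Library 4 of young males held 7.53 CPM, library 9 of aged males 8.89, library 13 of unstimulated females 14.8, and libraries 25 and 26 of stimulated females 12.5 and 6.32. No stimulated male brain library held a count, which at their depths allows up to 0.469 to 2.59 CPM. The low-count filter removed Snap25 from the fits of all 8 comparisons, and none of its 8 exact permutation tests, one for each comparison, had an adjusted p below 0.857. The highest spleen value was 0.408 CPM, from 6 counts in library 33.

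Mbp was the one member found at a steady level in spleen. The 5 unstimulated spleen libraries held 63.4 to 72.6 CPM and the 5 stimulated ones 47.7 to 58.5 CPM. Unstimulated brain libraries held 40.2 to 226 CPM, with a median of 54.9 over 16. The brain range enclosed the spleen range, and the difference in unstimulated males was 0.92 ± 0.54 (adjusted p 0.464). Stimulated brain was more scattered: male libraries 19 to 22 held 62.6, 17.8, 46.0 and 0 CPM, and female libraries 23 to 27 held 198, 41.4, 13.9, 146 and 5.86 CPM. In stimulated males brain and spleen differed by -0.03 ± 1.17 (adjusted p 0.986). The gene has an upstream start, whose golli transcripts are known in lymphoid cells, and a downstream start that gives the classic myelin transcripts.

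Slc1a3 had counts in 21 of 25 brain libraries and in all 10 spleen libraries, mostly few. In unstimulated aged male brain it held 0 to 5.36 CPM and in unstimulated spleen 0.109 to 2.38 CPM, ranges that overlap, and the difference was 1.34 ± 1.43 (adjusted p 0.751). In stimulated male brain, libraries 19 to 22 held 3.44, 27.2, 0.260 and 3.46 CPM, and stimulated spleen held 0.116 to 1.79 CPM. The difference of 3.47 ± 1.09 passed the threshold (adjusted p 0.0248) although library 21 lay inside the spleen range. Without library 20 it was 1.74 (adjusted p 0.149), and limma voom did not call it (adjusted p 0.0768). The highest brain value came from young male library 4, with 606 counts (49.6 CPM), while the other 4 libraries of that group held 0 to 0.150 CPM.

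Apoe was found in both tissues. Unstimulated spleen held 23.01 to 60.9 CPM and stimulated spleen 3.32 to 15.9 CPM, in all 10 libraries. In unstimulated aged male brain, libraries 7 to 12 held 20.7, 20.1, 780, 26.8, 24.6 and 54.0 CPM, so that 3 of 6 lay inside the spleen range, 2 just below it and library 9 far above it. The tissue difference of 2.73 ± 1.01 did not pass (adjusted p 0.151), and it was 0.27 without library 9. In stimulated male brain library 19 held 109 CPM and libraries 20 to 22 held no count. The difference from stimulated spleen was 1.95 ± 1.90 (adjusted p 0.460), and without library 19 it turned to -9.03 (adjusted p 0.0027). Female library 15, unstimulated, held 321 CPM, while the other 4 of that group held 5.20 to 29.2 CPM.

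Counted over the members, edgeR called 2 of the 5 tested in unstimulated males (Ttr and Meg3, both higher in brain), beside 7.37% of all 11040 genes tested. Neither gene reached 10 counts in any unstimulated spleen library, so both passed the low-count filter through brain alone. In stimulated males it called 3 of 5 (Snhg11, Meg3 and Slc1a3, all higher in brain), beside 48.5% of 9135 genes. Snhg11 and Meg3 reached 10 counts in 1 stimulated spleen library each, and thus passed the filter through brain. The direction of these calls was set in part by the filter, in stimulated males as well. Of the 4434 genes called there, 4268 were lower in brain, and the median log2 fold change over all genes was -3.02, against 0.31 in unstimulated males. Stimulated brain libraries carry the high mitochondrial share and low gene number given above. With mitochondrially encoded genes left out of the fit, the same 3 members were called in stimulated males, with 6.10 for Snhg11, 5.89 for Meg3 and 3.52 for Slc1a3. The part of the low gene number was not tested.

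**Figure D2:**
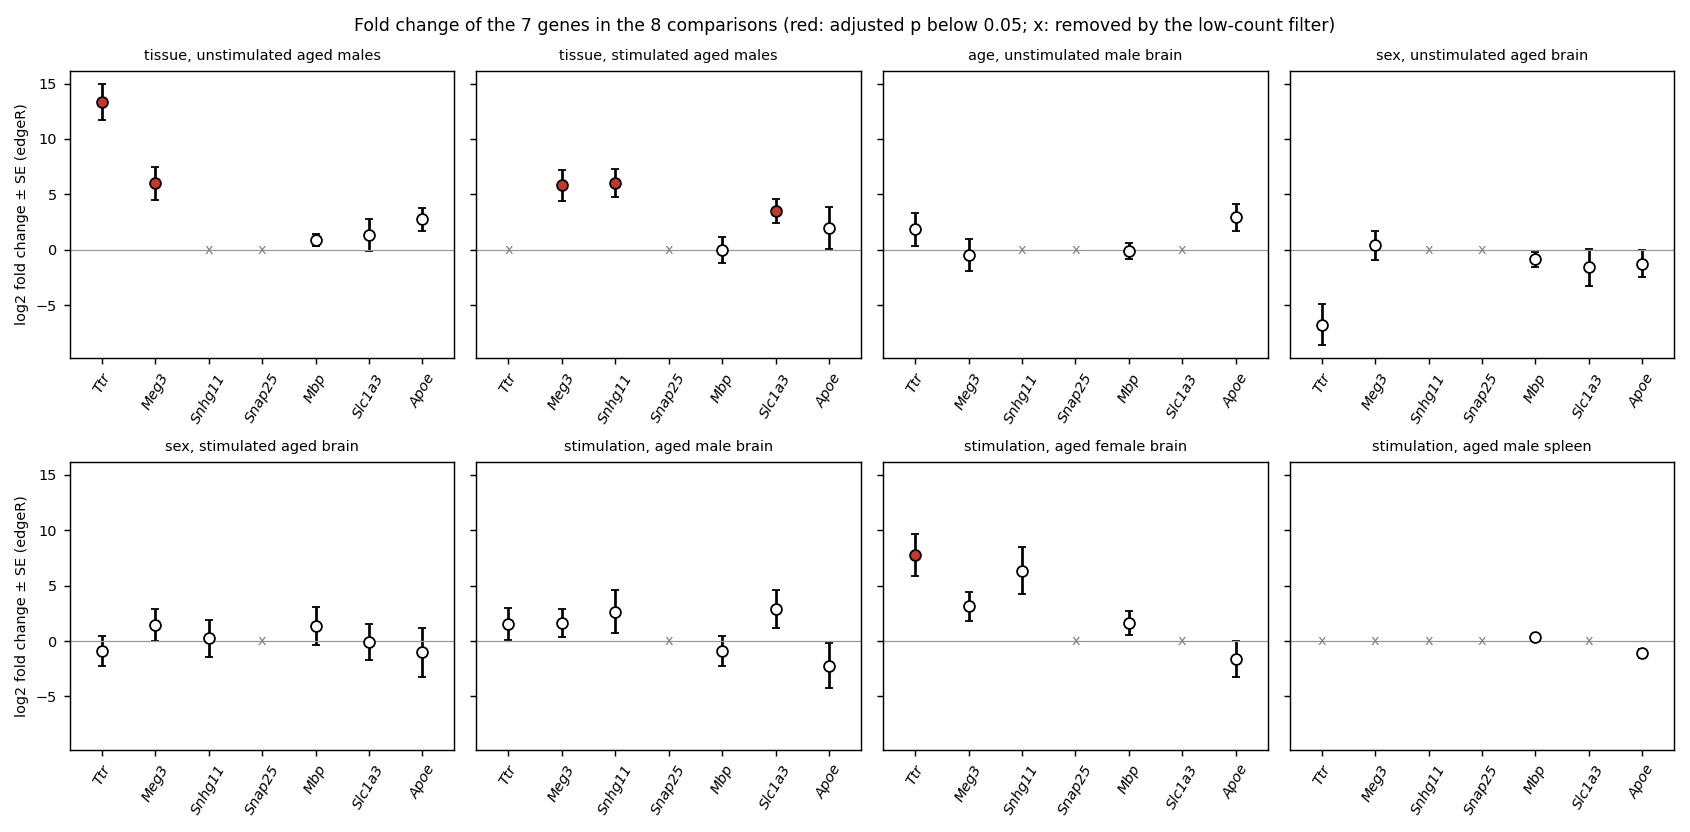
Log2 fold change ± SE from edgeR for each gene in the 8 comparisons; each difference is the first-named state (brain, aged, female or stimulated) minus the other, red marks an adjusted p below 0.05, and x marks genes removed by the low-count filter. Ttr and Meg3 are red for tissue in unstimulated males, Snhg11, Meg3 and Slc1a3 for tissue in stimulated males, and Ttr for stimulation in female brain.

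No member was called for age. Aged minus young male brain, unstimulated, gave 1.86 ± 1.48 for Ttr, -0.11 ± 0.73 for Mbp, -0.51 ± 1.44 for Meg3 and 2.91 ± 1.24 for Apoe. Of the 4 tested none passed, and edgeR called 0% of 8068 genes. At an unadjusted p under 0.05 there were 374 genes, with Apoe the 1 member among them, and DESeq2 called 72 genes. Apoe fell to 0.44 without aged library 9. Ttr had 2 of 6 aged libraries above all young ones, and the young range reached 225 CPM through library 4.

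In unstimulated aged brain Ttr had the largest sex difference of the 5 members tested, and edgeR did not call it. The 5 female libraries held 0 to 8.07 CPM and the 6 male ones 1.68 to 624.5 CPM. Of the 5 female libraries, 3 lay below every male one, and male library 9 at 1.68 CPM lay below 2 of the female ones. The female minus male difference was -6.77 ± 1.86, with an unadjusted p of 0.0027 and an adjusted p of 0.430 from edgeR, whereas DESeq2 called it (adjusted p 0.0026). None of the 5 members tested was called, beside 0.15% of 8691 genes, and Ttr was the 1 member with an unadjusted p under 0.05. The unstimulated male and female libraries also come from different title sets, and sex and title set cannot be told apart there. The other 4 tested ranged from -1.60 ± 1.63 for Slc1a3 to 0.39 ± 1.28 for Meg3. In stimulated aged brain none of 6 members was called, with 0% of 3159 genes called. No member had an unadjusted p under 0.05, against 158 of all genes, and DESeq2 called 90 genes. There Ttr differed by -0.92 ± 1.33 and Meg3 by 1.44 ± 1.45.

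Stimulation went with higher Ttr in female brain. The stimulated minus unstimulated difference was 7.75 ± 1.88 (n = 5 and 5, adjusted p 0.0313), with no overlap, from group means of 2.38 and 195 CPM. Ttr was the 1 member called of 5 tested, beside 6.09% of 6305 genes. It had at least 10 counts in all 5 stimulated and in 2 of 5 unstimulated libraries, and so passed the filter mainly through the stimulated group. Without the 2 stimulated libraries in the other title format the difference was 6.45 (adjusted p 0.101). The call was also lost without unstimulated library 13, 14, 16 or 17 or stimulated library 27 (adjusted p 0.0545 to 0.0729). Snhg11 followed with 6.36 ± 2.09 (adjusted p 0.104) and Meg3 with 3.13 ± 1.33 (adjusted p 0.249). For Snhg11, 4 of 5 stimulated libraries lay above every unstimulated one, and library 23 held no count. DESeq2 and limma voom called both genes (adjusted p 0.00077 and 0.0103 with DESeq2, 0.0234 and 0.0237 with voom). Slc1a3 was removed by the filter, and its exact permutation p was 0.0476 (difference of 1.80 on log2(CPM + 1), adjusted p 0.857 over 18 such tests).

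In male brain edgeR called none of the 6 members tested for stimulation, beside 38.1% of 7540 genes, 2743 of them lower. The median over all genes was -2.62. Ttr gave 1.54 ± 1.42, Meg3 1.63 ± 1.25, Snhg11 2.66 ± 1.97, Slc1a3 2.91 ± 1.70, Mbp -0.87 ± 1.36 and Apoe -2.22 ± 2.00. No member had an unadjusted p under 0.05. Without unstimulated library 11, the one with 817 Snhg11 counts, Snhg11 was 9.02 (adjusted p 0.0111). Limma voom called Snhg11 higher (6.80) and Apoe lower (-5.54). The female minus male difference in response was tested directly, a test added after the data were seen. It was 6.08 ± 2.21 for Ttr (adjusted p 0.0906), and no member passed. Male stimulated brain and female unstimulated brain share a title set that unstimulated male brain does not, so title set and state cannot be told apart in males.

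In spleen stimulation called none of the 2 members tested, beside 18.7% of 11107 genes. Apoe was lower by plain CPM, 9.92 ± 5.18 stimulated against 35.05 ± 16.3 unstimulated (SD, n = 5 each). The groups did not overlap, and the difference was -1.12 ± 0.42 (adjusted p 0.0824 with edgeR, 0.0423 with DESeq2). Markers of spleen macrophages fell in the same libraries: 4 of the 6 tested of 7 measured (Cd5l, Hmox1, Spic and Vcam1) were called lower and none higher. Their summed level was 44.0 to 133 CPM unstimulated and 4.15 to 15.6 CPM stimulated, and the part of those cells in the Apoe value was not tested. Mbp was also separated, at 53.7 ± 4.57 against 68.2 ± 3.37 CPM. After TMM scaling its sign turned, to 0.33 ± 0.14 (adjusted p 0.138), so its direction depends on the scaling. Both Mbp and Apoe had an unadjusted p under 0.05. These comparisons share groups: the aged male unstimulated brain libraries serve in 4 of them, so the differences above are not independent.

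Per length, the order of the members differed between tissues. In spleen the median TPM, a level corrected for transcript length and library size, was 19.6 for Apoe, 16.5 for Mbp and 0.495 for Slc1a3, and below 0.1 for the others. In unstimulated brain it was 31.2 for Apoe, 15.7 for Mbp, 4.77 for Ttr and below 0.4 for the rest. In stimulated brain Ttr came first at 90.1, followed by Mbp at 10.6 and Apoe at 5.14. These levels overlap widely between neighbours: in unstimulated brain Apoe spanned 1.15 to 698, Mbp 6.41 to 46.1 and Ttr 0 to 461 TPM.

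No pair of members was correlated beyond the test's threshold. For these correlations CPM was scaled by TMM. In the 16 unstimulated brain libraries, Pearson's r of log2(CPM + 1) over the 21 pairs ran from -0.17 to 0.48. The median was 0.07, with 16 pairs above 0. The highest was Slc1a3 with Snap25, at 0.42 without the 2 libraries farthest from the median. Within the 11 male libraries, which form 1 title set, r ran from -0.28 to 0.73. There Apoe with Snap25 stood at 0.73 (0.46 over all 16) and Slc1a3 with Snap25 at 0.66, and these values were not tested. The 5 female libraries are too few for a value of their own. Over the 16 libraries no pair had a permutation p under 0.05 by Pearson's r or Spearman's rho, adjusted or not. Different libraries led for different genes: among aged males, 12 led for Ttr, 7 for Meg3, 11 for Snhg11, 8 for Mbp, 10 for Slc1a3 and 9 for both Apoe and Snap25. Young male library 4 was the exception, with the highest value of its group for 6 of 7 members, all but Mbp. Its red blood cell genes summed to 610 CPM, against at most 7.73 in the other 4 young libraries, and its 10 T cell genes to 5125 CPM, the lowest sum of the unstimulated brain libraries. The part of blood or of cell purity in that library was not tested.

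**Figure D3:**
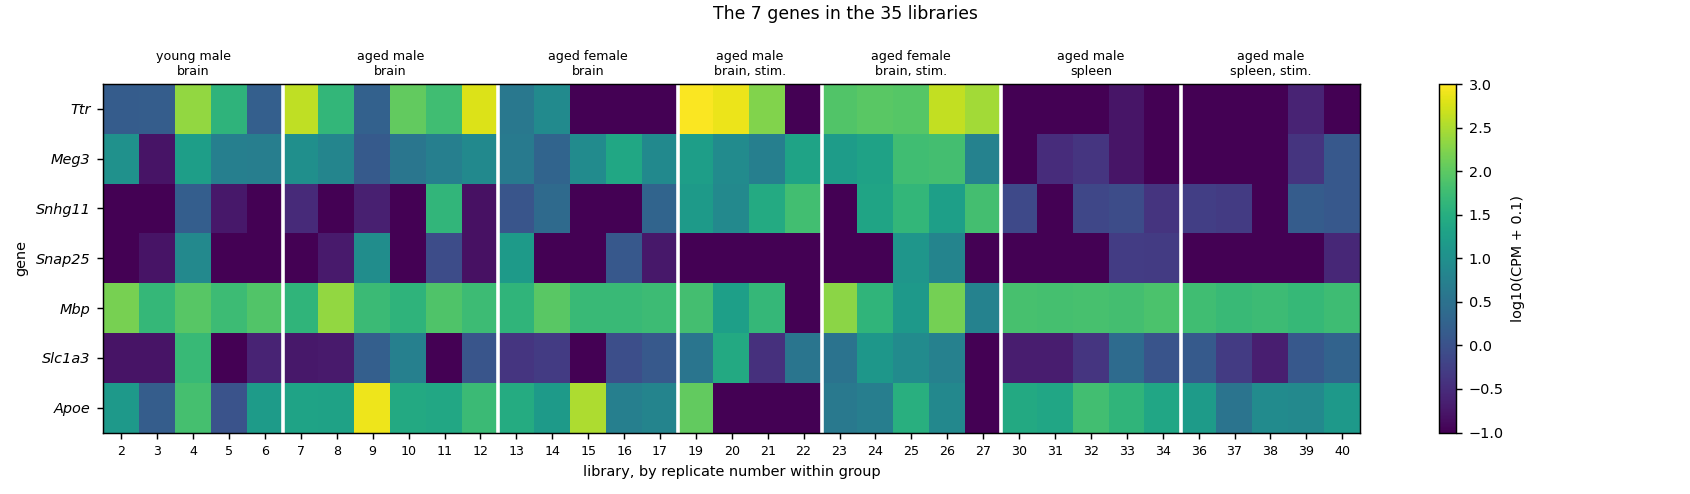
Log10(CPM + 0.1) of the 7 genes (lines) in the 35 libraries (columns, by title number within group). Bright cells of different genes fall in different libraries, for example Apoe in library 9 and Ttr in libraries 7 and 12 of aged males, while the Mbp line is even across spleen.

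The genes whose pattern was most like a member's over these 16 libraries included none of the marker lists used here. That absence was set in part by the filter, since a candidate needed at least 10 counts in at least 5 of the 16 libraries. Folr1, Gad1 and Stmn2, with any count in 3, 1 and 2 of them, could not be candidates. Other listed genes, such as Cnp and Glul, had counts in all 16. Of 8777 candidate genes, Ttll1 (r = 0.84), Kat5 (0.81) and Slc25a16 (0.80) were nearest to Ttr, and Med13l (0.81), Madd (0.78) and Arl4c (0.77) to Mbp. For Snhg11 they were Zfp329 (0.91), Phactr1 (0.89) and Spdl1 (0.87), and for Meg3 Ranbp9 (0.82), Eea1 (0.81) and Timm44 (0.80). Slc1a3 had Fgfr1op2 and Gltpd1 (both 0.89) and Tm2d3 (0.82). Apoe had Papd5 (0.79), Cdk7 (0.78) and Trpv2 (0.74), and Snap25 had Adssl1 (0.86), Birc5 (0.83) and Lrsam1 (0.78). These are the 3 highest of 8777 values for each member, over 16 libraries that differ in depth and title set, given as a description only. Some rest largely on 1 library: library 11 held 85.9% of the summed Snhg11 CPM, and young male library 4 held 81.7% of that of Slc1a3.

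Of the lists for choroid plexus, oligodendrocytes, astrocytes and neurons, none had counts in brain for every further gene. Genes with a count somewhere in brain were 12 of 14, 8 of 14, 11 of 13 and 16 of 17, in that order. Of 14 further choroid plexus genes, Otx2 and Lmx1a were at 0 in all 35 libraries. Folr1 had counts in 3 of 25 brain libraries, Aqp1 in 5, Clic6 in 6 and Igfbp2 in 3, and none of these had a count in spleen. Other genes were seen more often in spleen. Kcnj13 had counts in 1 brain and 9 of 10 spleen libraries, Sostdc1 in 2 and 10, and Prlr in 3 and 5. Enpp2, the secreted enzyme autotaxin, was the highest of them, with up to 2491 CPM in brain. All 14 genes together held 4.83 to 17.7 CPM in spleen. Enpp2 was higher in brain in both tissue comparisons, by 5.02 ± 1.23 (adjusted p 0.0180) and 7.47 ± 2.00 (adjusted p 0.0109), with overlap in both. Kcnj13, a choroid plexus potassium channel, was lower in brain, with 0 CPM in aged males against 2.29 in spleen (-7.75 ± 1.31, adjusted p 0.0049). The 14 genes summed to 802 CPM in aged male library 12 and 2723 CPM in stimulated library 19, both high in Ttr. Library 19 held 2491 CPM of Enpp2, with Igf2 (153 CPM), Igfbp2 (69.6) and Clic6 (9.54) beside it. In stimulated male brain 5 of the 14 genes had any count and 9 had none. The 14 summed to 27.1 CPM in library 7, where Ttr held 409 CPM. In stimulated female libraries 23 and 24 they summed to 0.203 and 0 CPM, where Ttr held 82.1 and 94.2 CPM.

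Among 14 further oligodendrocyte genes, Mog, Cldn11, Opalin and Fa2h were at 0 in all 35 libraries, and the 14 summed to 0.450 to 166 CPM in brain and 21.9 to 97.8 CPM in spleen. Among 13 further astrocyte genes Ntsr2 was at 0 everywhere and Aqp4 reached 0.414 CPM, and the 13 summed to 8.68 to 266 CPM in brain and 25.7 to 57.1 CPM in spleen. Among 17 further neuron genes, 16 had a count somewhere in brain. Their sum ran from 0 to 373 CPM in brain and from 26.9 to 57.7 CPM in spleen, and none was called higher in brain in either tissue comparison (5 and 2 tested). Nsg2 was lower in stimulated male brain (-9.74 ± 0.97, adjusted p 0.00043).

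RSEM reports for each gene and library a length averaged over transcripts by their estimated abundance, which shows where the reads were assigned. For Slc1a3 (chr15:8634124-8710764, minus strand, GRCm38) that length was 964 bases, within 1 base, in 16 of the 21 brain libraries with a count, which held 905 of 1080 brain counts. The same length stood in 6 of 10 spleen libraries. It is the length of a transcript annotated as a retained intron (chr15:8687898-8710496), of which 574 bases lie in exons of the full coding transcript and 390 bases do not. The 4163 bases of the coding transcript itself were reported in 2 brain libraries, aged male 9 and 12, with 46 counts. Expected counts were not whole in 12 of the 21 brain libraries, as happens when RSEM splits reads between genes. Of the 50-base words of the retained intron transcript, 6.23% also stand in transcripts of 87 other genes. Those words come mostly from 1 stretch of 101 bases outside the coding exons (chr15:8688152-8688252, GRCm38, minus strand, 5′ to 3′, from the GENCODE M21 transcripts), shown because a read lying within such a repeat matches many genes:

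Slc1a3 retained intron transcript, bases 610 to 710: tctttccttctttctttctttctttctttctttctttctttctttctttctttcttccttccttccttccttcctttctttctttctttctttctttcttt

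The stretch is a run of pyrimidine repeats. How many Slc1a3 reads lay on it was not tested, since no reads were used, and the assignment bears on the Slc1a3 values of brain and spleen alike. In young male library 4, with 606 counts, the length was also 964 bases.

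**Figure D4:**
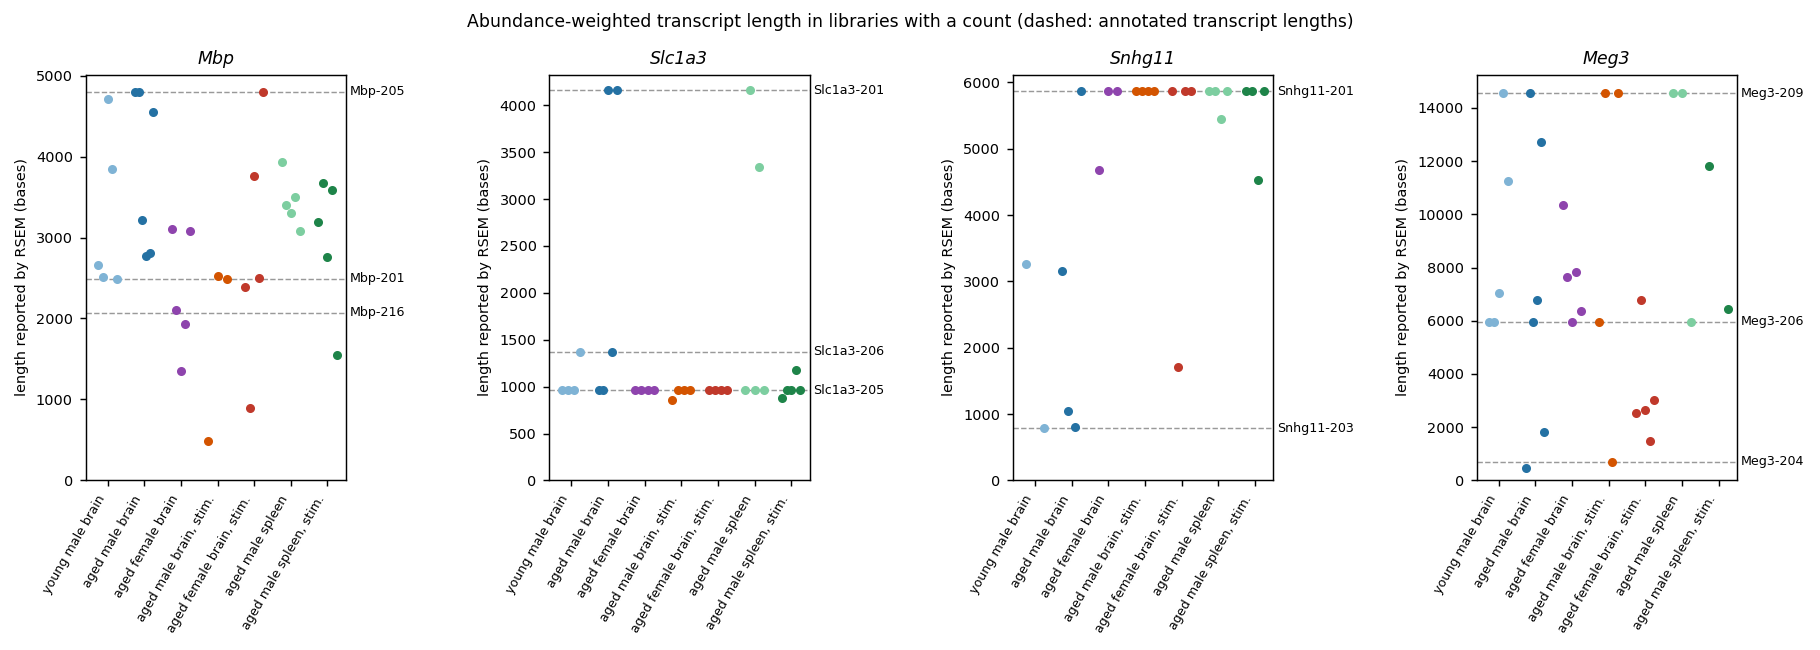
Transcript length reported by RSEM (bases) for 4 genes in each library with a count, by group; points are libraries and dashed lines are lengths of annotated transcripts. Slc1a3 points gather at 964 bases in most groups, and Mbp points lie between 1546 and 3938 bases in spleen but between 489 and 4797 bases in brain.

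For Mbp (chr18:82475146-82585637, plus strand) the reported length was 4797 bases in aged male libraries 7 and 8 and stimulated female library 27. That is the length of a coding transcript that begins at the upstream golli start (chr18:82475146-82558703), of which 4.27% lies in exons of the longest classic transcript, with 2070 bases, from the downstream start. The next longest annotated transcript, also from the golli start, has 2492 bases. In 9 of 10 spleen libraries the mean length was above that, with a median of 3354 bases, which in this annotation needs reads assigned to the longest golli-start transcript. In brain the median was 2713 bases over 24 libraries, also above 2492, with a range of 489 to 4797. All 6 unstimulated aged male brain libraries lay above 2492 (2770 to 4797), so the same need for golli-start reads applies to them. The median of unstimulated aged female brain was lower, at 2105 bases. Expected counts of Mbp were not whole in all 10 spleen libraries and in 5 of 24 brain libraries. These lengths were estimated from short reads and carry no interval. The authors' annotation release is not given in the sources used here, and the length of Ttr in the files, 1219 bases, differs from the 1186 bases of GENCODE M21, so a match of lengths is only a description.

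Snhg11 (chr2:158375638-158386145, plus strand) had the 5864 bases of its longest transcript in 10 of 17 brain and 6 of 8 spleen libraries with a count. In aged male library 11, with 817 counts, the length was 800 bases, near the 786 bases of a short transcript annotated for nonsense-mediated decay. In stimulated brain 7 of the 8 libraries with a count had 5864 bases, and library 25, with 409 counts, had 1715 bases. Expected counts of Snhg11 were not whole in 16 of those 17 brain libraries and in all 8 of spleen. Meg3 (chr12:109541001-109571726, plus strand) had the length of a transcript of 5971 bases in 5 and of one of 14548 bases in 4 of 25 brain libraries, and mixed lengths elsewhere. Between 0% and 61.3% of the words of its 11 annotated transcripts also stand in other genes, so its counts are uncertain where transcripts overlap. Snap25 (chr2:136713453-136782428, plus strand) had the length of a transcript of 1014 bases in 8 of 11 brain libraries. Ttr (chr18:20665280-20674321, plus strand) and Apoe (chr7:19696109-19699188, minus strand) shared no word with another gene, and their expected counts were whole in every library.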

How the data were processed

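Per the submitters' processing notes, the authors used Bowtie2 2.2.0, RSEM 1.2.12 and the mm10 build (GRCm38). The annotation release, strand setting and read layout were not given in the sources used here. Each library's file, as the authors deposited it and per its header, holds the RSEM expected counts, TPM and FPKM of each gene, and its transcript length averaged by estimated abundance. The authors' deposited count table holds the same expected counts rounded to whole numbers (difference of at most 0.5). FPKM was not tested.

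From the counts, CPM was computed on each library's total. For the correlations between members and for the genes most like each member, CPM was scaled by TMM over the 16 unstimulated brain libraries. Differences were tested with edgeR 4.0.16 (TMM scaling, filterByExpr with a minimum count of 10, quasi-likelihood test, Benjamini-Hochberg adjustment over all genes tested, threshold 0.05), on the 2 groups of each comparison. Every adjusted p in the text comes from that test unless another is named. Members removed by the filter were compared by an exact permutation test (two-sided) of log2(CPM + 1). DESeq2 1.42.0, limma 3.58.1 (voom with quality weights), DESeq2 size factors, no filter, mitochondrially encoded genes left out, a fit of all 35 libraries, title-format subsets and leaving out each library were the alternatives. Python 3.11.15, scipy 1.17.1 and R 4.3.3 were used. Tested on simulated counts, the edgeR step recovered 16% of genes changed by 3 on the log2 scale in the unstimulated tissue comparison. It recovered 76% in the spleen comparison, 8% for age, 6% for sex in unstimulated brain and 0% in the 4 comparisons with stimulated brain. The simulation changed few genes, as many up as down. In the data edgeR called 4434 genes for tissue in stimulated males, 4268 of them lower in brain. The recovery thus does not measure the power of such fits, and an uncalled member may still differ. Transcript positions and sequence came from the GENCODE M21 transcripts of GRCm38, with shared sequence counted as 50-base words found in another gene.

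The members and marker lists were chosen with earlier results of these data known. Besides the 7 members, genes were named by a rule: from each marker list up to 3 called genes with the largest fold change per comparison and up to 3 with the highest mean CPM in brain, and 3 genes most like each member among those with at least 10 counts in at least 5 of 16 libraries, without predicted, small RNA and mitochondrial genes. Marker genes named for being at or near 0, Folr1, Aqp1 and Aqp4 among them, and the genes called in spleen macrophages were chosen after their values were seen. So were choroid plexus genes named for having counts more often in one tissue, such as Sostdc1 and Prlr. Some marker genes that the rule would name are not reported here.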

Additional observations from a re-analysis of the deposited data

Results flagged for a closer look

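In 21 of the 48 gene and group combinations tested (43.75%), 1 library stood further from the rest of its group than the Dixon 95% limit allows. About 1 in 20 would do so by chance for independent, normally distributed values. CPM values here are skewed and often 0, and a single library with counts among libraries at 0 always exceeds the limit. The excess over 1 in 20 is therefore no measure of how many libraries are odd. Young male brain library 4 was such a library for 5 genes, with 225 CPM of Ttr, 1.47 of Snhg11, 49.6 of Slc1a3, 66.9 of Apoe and 7.53 of Snap25. In unstimulated aged male brain these were library 8 for Mbp (226 CPM), library 9 for Apoe (780) and Snap25 (8.89), library 10 for Slc1a3 (5.36) and library 11 for Snhg11 (43.5). In unstimulated female brain they were library 13 for Snap25 (14.8 CPM), library 14 for Mbp (96.1), library 15 for Apoe (321) and library 16 for Meg3 (24.1).

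In stimulated brain, male library 19 stood apart for Apoe (109 CPM), male library 20 for Slc1a3 (27.2) and female library 25 for Apoe (33.5). In spleen the values that stood apart were near 0: Ttr in libraries 33 (0.068 CPM) and 39 (0.148), each from 1 count, and Meg3 (1.16) and Snap25 (0.179) in library 40.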

How the results depend on the processing

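Of 620 member values under the alternatives, 556 kept their direction and side of the threshold, 33 reversed, 13 gained a call and 18 lost one. In unstimulated males tissue gave 814 called genes with edgeR, 1615 with voom and 1677 with no filter. Age gave 0 called genes with edgeR, 72 with DESeq2, 25 with no filter and 1 in the fit of all 35 libraries. Sex in unstimulated brain gave 13 called genes, 23 with DESeq2 (1 member, Ttr), 44 with voom, 6 with DESeq2 size factors and 29 with no filter. Sex in stimulated brain gave 0, 90 with DESeq2, 21 with no filter and 2560 in the fit of all libraries. Stimulation in male brain gave 2875 and, in the fit of all libraries, 5018, with 2 members called by voom. Stimulation in female brain gave 384 genes and 1 member, with 878 genes and 3 members for DESeq2, 1360 and 3 for voom, 704 genes with no filter, 2549 and 2 in the fit of all libraries, and 135 and 0 without the 2 libraries of the other title format. Stimulation in spleen gave 2080 genes and 53 in the fit of all libraries, and 1 member (Apoe) by DESeq2 and 1 by voom. For sex in stimulated brain, no member of which was called, Snhg11 (0.23) turned to -0.0936 with DESeq2, -0.0946 with its size factors, -0.0388 with voom and -0.20 without the other title format. Slc1a3 (-0.08) turned there to 0.66 with voom, 0.0430 with no filter, 0.25 in the fit of all libraries and 0.48 without the other title format, Ttr to 0.17 and Apoe to 3.12 with voom. Voom also turned Apoe for tissue in stimulated males (-3.20), Meg3 for sex in unstimulated brain (-0.32) and Ttr for stimulation in male brain (-0.76). With spleen-format titles alone, tissue in stimulated libraries gave 1.17 for Mbp and -0.69 for Apoe. Leaving out 1 library at a time moved called genes within 0 to 1 for age and for sex in stimulated brain, 4 to 15 for sex in unstimulated brain and 49 to 596 for stimulation in female brain. It moved called members within 1 to 2 for tissue in unstimulated males, and 0 to 1 for each of the 3 stimulation comparisons. The values that changed sign spanned, for Apoe, -2.55 to 8.43 (sex, stimulated), -3.88 to 1.17 (sex, unstimulated), -3.16 to 0.95 (stimulation, female brain), -14.001 to 0.24 (stimulation, male brain) and -9.03 to 2.33 (tissue, stimulated). For Mbp they spanned -0.87 to 0.19 (age) and -0.57 to 0.33 (tissue, stimulated), for Meg3 -0.83 to 0.0363 (age) and -0.33 to 0.64 (sex, unstimulated), and for sex in stimulated brain -0.71 to 1.61 (Slc1a3) and -0.37 to 0.98 (Snhg11). The cause of these changes was not tested. Leaving out mitochondrially encoded genes changed no member's call or direction in the 8 comparisons. No paired analysis was possible because the groups compared share no replicate numbers. In the shallowest library 0 counts allow up to 2.59 CPM, so a member at 0 there may be present below that.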

Other observations

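Microglial genes, 12 of them, summed to 2.28 to 423 CPM in unstimulated brain, 3.44 to 125 CPM in stimulated brain and 22.6 to 181 CPM in spleen, and did not move as a set. Siglech, a microglial lectin also found on plasmacytoid dendritic cells, had counts in all 9 stimulated brain libraries and was higher in stimulated male brain than in spleen by 3.55 ± 1.02 (adjusted p 0.0158), with overlap. Among neuron genes other than the members, Map2, a dendritic cytoskeleton protein, had the highest mean in brain, at 27.8 CPM over 25 libraries, with counts in 19. Atp1b1 (13.5 CPM) and Camk2b (9.40 CPM) had counts in 16 each. In unstimulated brain their means were 60.4 and 40.1 CPM in young males, 1.75 and 2.24 in aged males and 3.81 and 0.684 in aged females. In stimulated brain, all of it aged, they were 0 and 4.03 CPM in males and 1.10 and 0.354 in females. Only 2 of the 9 stimulated brain libraries had counts for each gene. Snhg11 and Meg3 had their highest values in stimulated brain. These means were not compared by a test.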
